A study of Mus musculus with 7 samples.

Results

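The 9 genes here carry long-chain fatty acids into mitochondria on carnitine, transfer short acyl groups to carnitine (Crat) or supply the cell with carnitine. They were chosen by symbol with earlier results of these data known, so their shares beside those of all genes are descriptions only. All 9, among 20000 genes tested of 36492 gene names, had at least 1 probe and a signal above background in all 7 livers. They fall into the carnitine shuttle (Cpt1a, Cpt1b, Slc25a20, Cpt2 and Crat) and carnitine supply (Slc22a5, Tmlhe, Aldh9a1 and Bbox1). The livers came from female mice, 8 to 12 weeks old and fasted for 24 h: 3 C57BL/6 controls, called WT, and 4 SHIVA mice. SHIVA mice are heterozygous for a chemically induced (ENU) missense mutation in the DNA-binding HMG domain of Sox17, a transcription factor, and had been backcrossed repeatedly to C57BL/6, so that both groups share this strain background and, per the study's methods, a housing room. RNA was taken from each mouse by itself and read on a one-colour Agilent array. The mutation is present in every cell, so the liver was not its only site, and the whole organ was sampled.

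Long-chain acyl-CoA cannot cross the inner mitochondrial membrane. Carnitine palmitoyltransferase of the outer membrane (Cpt1a in liver, Cpt1b in muscle) moves the acyl group onto carnitine, the carrier Slc25a20 exchanges acylcarnitine for free carnitine across the inner membrane, and Cpt2 returns the acyl group to coenzyme A inside, where beta-oxidation begins. Carnitine is taken up from blood by Slc22a5 (OCTN2) and is also made from trimethyllysine, by Tmlhe, Aldh9a1 and Bbox1 in that order with an aldolase step between the first and the next. In fasted liver this route feeds ketone body synthesis, and several of its genes are known targets of the nuclear receptor PPARa.

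Of the 9 genes, 8 had a lower mean in SHIVA livers and 1, Tmlhe, a higher one. The lowest ratios were those of Crat, Slc22a5 and Slc25a20, with signals 2.48-fold, 2.11-fold and 1.69-fold lower than in WT livers, while Cpt1a differed by 0.12 on the log2 scale. In 4 genes (Crat, Slc22a5, Slc25a20 and Bbox1) every SHIVA liver lay below every WT liver, an arrangement that 6.02% of all genes tested showed. None of the 9 was called at a limma adjusted p below 0.05, a call made for 0.375% of all genes tested. Of the 9 genes, 4 had an unadjusted limma p below 0.05, all lower, against 13.3% of all genes in either direction and 6.1% in the lower direction. A log2 fold change under -0.5 was found in 4 genes (Crat, Slc22a5, Slc25a20 and Cpt1b), against 6.64% of all genes tested. The median log2 fold change, SHIVA over WT, was -0.37 over the 9 genes and -0.0074 over all genes tested. By role, the median was -0.56 over the 5 shuttle genes and -0.28 over the 4 supply genes. The shuttle median is the value of Cpt1b, whose groups overlapped.

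All arrays lay on 1 slide and were read in 1 scan, with WT livers in row 1 and SHIVA livers in row 2, so that position on the slide and genotype cannot be told apart. The arrays read 44.5% to 48.8% of their probes well above background, and no spot was saturated. All 8 hepatocyte markers were above background on every array, and log2 of their summed signal, to which Alb (18.30 and 18.33) adds the most, spanned 19.36 to 19.54 in WT and 19.33 to 19.56 in SHIVA livers. Of the 8, Ttr, the transthyretin gene, was below the WT range in all SHIVA livers (log2 fold change -0.32, limma adjusted p = 0.363), and the other 7 overlapped. Sox17 itself was near background, with a signal of 3.95 ± 0.56 in WT and 4.64 ± 0.13 in SHIVA livers (log2, SD, n = 3 and n = 4, limma adjusted p = 0.279), and a missense change need not alter its transcript. In RNA of a whole liver, fewer cells of a type and less RNA per cell cannot be told apart.

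**Figure D1:**
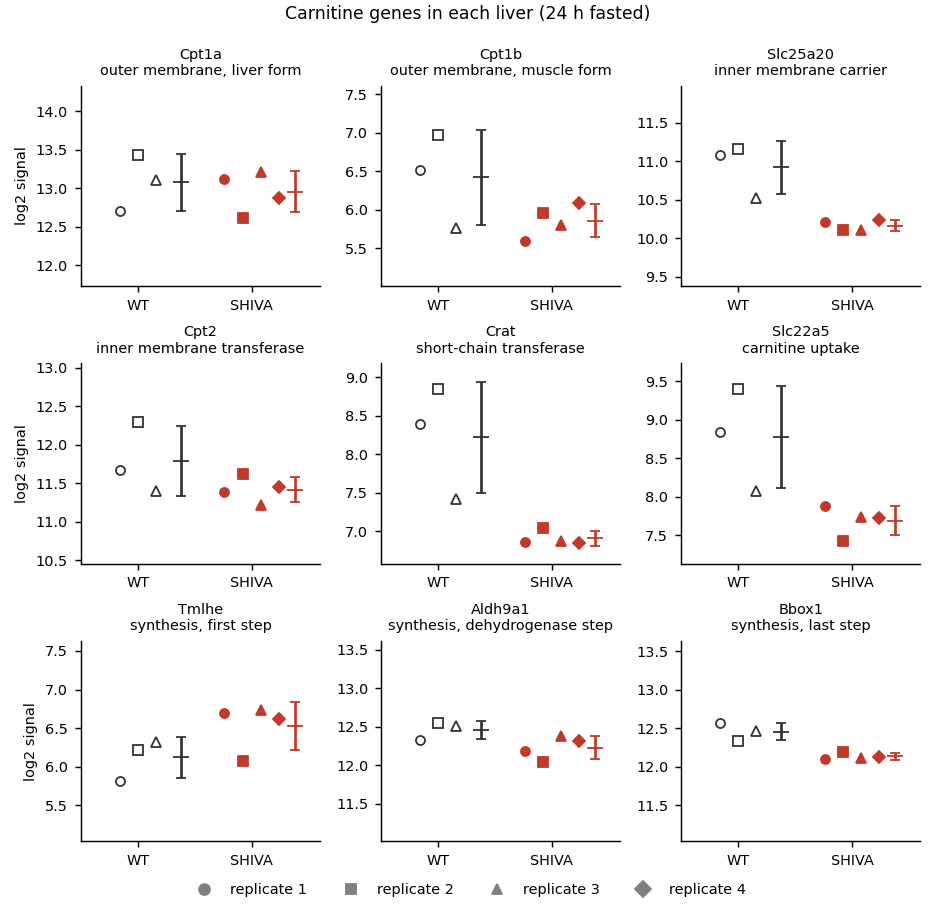
Log2 signal (y axis) of each of the 9 genes in each liver, with WT mice as open and SHIVA mice as filled symbols, marker shape giving the replicate number and bars showing mean ± SD (n = 3 and n = 4). In the panels of Slc25a20, Crat, Slc22a5 and Bbox1 all SHIVA livers sit below all WT livers, and in the panels of Crat and Slc25a20 the SHIVA livers span only 0.197 and 0.134.

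Values below are quantile-normalised log2 signals of the gene's brightest probe. A signal depends on its probe, so levels are set against each other only between livers, never between genes. Cpt1a, the rate-setting acyltransferase of liver, gave 12.70, 13.44 and 13.10 in the WT livers and 13.12, 12.62, 13.22 and 12.87 in the SHIVA livers. The groups overlapped, with the highest value in WT replicate 2 and the lowest in SHIVA replicate 2. The means were 13.08 ± 0.37 (SD, n = 3) and 12.96 ± 0.27 (SD, n = 4), a log2 fold change of -0.12 with a 95% interval of -0.63 to 0.38 (SE 0.22, limma adjusted p = 0.855). The Cpt1a probe (chr19:3385374-3385433 of mm9, plus strand) was printed at 10 spots, of which 8 or 9 per array were used, and these repeat spots differed by an SD of 0.0364 to 0.103. A second Cpt1a probe gave 10.11 ± 0.44 and 9.75 ± 0.52 and overlapped as well (log2 fold change -0.36, SE 0.31, limma adjusted p = 0.690).

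Cpt1b, the form of the outer membrane enzyme best known from muscle and heart, had a low signal. It was 6.52, 6.97 and 5.76 in the WT livers and 5.59, 5.96, 5.80 and 6.08 in the SHIVA livers. WT replicate 3 lay among the SHIVA livers and WT replicates 1 and 2 above them. For Cpt1b the log2 fold change was -0.56 (SE 0.27, limma adjusted p = 0.430), and a second, dimmer Cpt1b probe that was above background on 5 of the 7 arrays gave -1.24 (SE 0.50, limma adjusted p = 0.339), also with overlap. With the first probe the value was -0.28 without WT replicate 2 and -0.89 without WT replicate 3 (limma adjusted p = 0.817 and 0.0811). Of 9 striated muscle markers, 7 (Ckm, Acta1, Myh1, Myh4, Mylpf, Actc1 and Mb) were not above background on any array. Tnnt3 was above it on 1 WT array, and Myh6, a heart myosin, on all 7, at 4.91 ± 0.41 in WT and 4.96 ± 0.26 in SHIVA livers (SD, n = 3 and n = 4). Log2 of the summed signal of the list was 5.76 to 6.18 in WT and 5.68 to 6.13 in SHIVA livers.

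Slc25a20, the carnitine/acylcarnitine translocase of the inner membrane, had the smallest standard error of the 3 genes with the lowest ratios. Its probe, designed against mm9 and lying on the plus strand at chr9:108585399-108585458, is shown here with the Crat probe because these 2 genes had the lowest p-values of the 9. Both read as open in a forward frame, in the sense of the transcript.
Slc25a20: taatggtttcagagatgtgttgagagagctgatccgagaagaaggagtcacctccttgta
Crat: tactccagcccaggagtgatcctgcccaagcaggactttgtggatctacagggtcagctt

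Slc25a20 gave 11.08, 11.16 and 10.52 in the WT livers and 10.21, 10.10, 10.11 and 10.23 in the SHIVA livers. All 4 SHIVA livers were below the lowest WT liver, replicate 3, and were closer to each other than the WT livers were. The means were 10.92 ± 0.35 (SD, n = 3) and 10.16 ± 0.068 (SD, n = 4), a log2 fold change of -0.76 (SE 0.18), or a signal 1.69-fold lower with a 95% interval of 1.27 to 2.25. The limma p-value adjusted over all genes was 0.145, and 1.73% of genes had a smaller unadjusted p.

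Cpt2, which rebuilds acyl-CoA on the matrix side, gave 11.68, 12.30 and 11.40 in the WT livers and 11.39, 11.62, 11.22 and 11.45 in the SHIVA livers. The groups overlapped, since WT replicate 3 lay within the SHIVA range. The log2 fold change was -0.37 (SE 0.22, limma adjusted p = 0.525), and it was -0.12 without WT replicate 2 and -0.57 without WT replicate 3 (limma adjusted p = 0.905 and 0.211). This probe lies on the minus strand at chr4:107576591-107576650 of mm9.

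With a second probe, further 5′ in the transcript, Cpt2 gave 9.15, 9.65 and 9.34 in the WT livers and 8.86, 8.66, 8.95 and 8.88 in the SHIVA livers. Here no SHIVA liver reached the WT range. The log2 fold change was -0.54 (SE 0.17, limma adjusted p = 0.243 over 26256 probes), so that both probes had the same sign and neither passed the test.

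Crat, carnitine acetyltransferase, moves acetyl and other short acyl groups between coenzyme A and carnitine. Its probe (printed above) lies on the minus strand at chr2:30265479-30265538 of mm9. It gave 8.39, 8.84 and 7.42 in the WT livers and 6.86, 7.05, 6.88 and 6.85 in the SHIVA livers. The lowest WT liver, replicate 3, was above every SHIVA liver, and the WT livers spanned 1.42 against 0.197 for the SHIVA livers. The means were 8.22 ± 0.73 (SD, n = 3) and 6.91 ± 0.092 (SD, n = 4), which is a log2 fold change of -1.31 (SE 0.30) and a signal 2.48-fold lower (95% interval 1.55 to 3.97). Its limma adjusted p, 0.132, was the lowest of the 9 genes, with 1.43% of all genes at a smaller unadjusted p.

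Slc22a5, the sodium-coupled carnitine transporter of the plasma membrane, gave 8.84, 9.40 and 8.08 in the WT livers and 7.89, 7.43, 7.74 and 7.72 in the SHIVA livers. No SHIVA liver reached the lowest WT value, again that of replicate 3. The means were 8.77 ± 0.66 (SD, n = 3) and 7.69 ± 0.19 (SD, n = 4), a log2 fold change of -1.08 (SE 0.29), a signal 2.11-fold lower with a 95% interval of 1.34 to 3.33 (limma adjusted p = 0.188). Its probe lies on the minus strand at chr11:53678550-53678609 of mm9.

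Of the 3 genes of carnitine synthesis, Tmlhe had a higher and Aldh9a1 and Bbox1 a lower mean in SHIVA livers, and none passed the test. Tmlhe, the trimethyllysine hydroxylase, gave 5.82, 6.22 and 6.32 in the WT livers and 6.69, 6.07, 6.73 and 6.61 in the SHIVA livers. SHIVA replicate 2 fell within the WT range and the other 3 SHIVA livers above it (log2 fold change 0.41, SE 0.21, limma adjusted p = 0.455). Aldh9a1, the dehydrogenase that makes butyrobetaine, gave 12.32, 12.55 and 12.51 in the WT livers and 12.19, 12.04, 12.38 and 12.31 in the SHIVA livers. SHIVA replicate 3 lay within the WT range and the other SHIVA livers below it (log2 fold change -0.23, SE 0.15, limma adjusted p = 0.550).

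Bbox1, which hydroxylates butyrobetaine to carnitine in the last step, gave 12.57, 12.34 and 12.46 in the WT livers and 12.10, 12.20, 12.12 and 12.13 in the SHIVA livers. The ranges did not meet, and both groups were narrow. The means were 12.46 ± 0.11 (SD, n = 3) and 12.14 ± 0.044 (SD, n = 4), and the log2 fold change was -0.32 (SE 0.13, limma adjusted p = 0.342), a signal 1.25-fold lower. The groups of Bbox1 were thus separate at a smaller difference than those of Crat, Slc22a5 and Slc25a20. Its probe lies on the minus strand at chr2:110105590-110105649 of mm9.

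**Figure D2:**
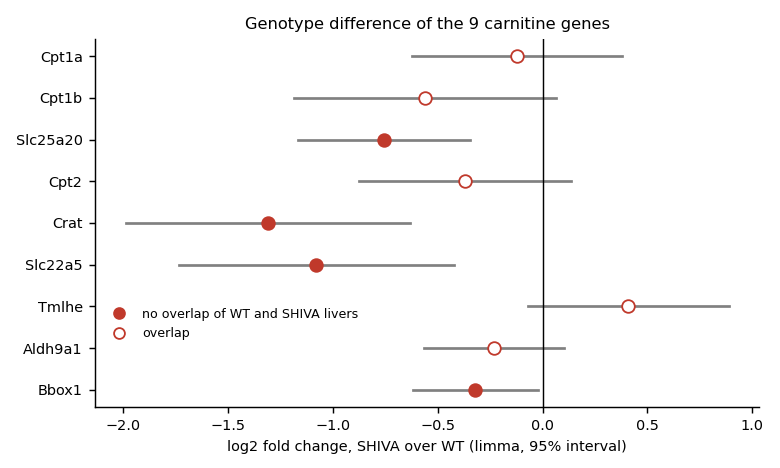
Log2 fold change, SHIVA over WT (x axis), of the 9 genes with 95% limma intervals, where filled points mark genes whose WT and SHIVA livers do not overlap. Intervals of Crat, Slc22a5, Slc25a20 and Bbox1 end below 0, none of the 9 passed the adjusted threshold, and Tmlhe, at 0.41, is the 1 gene to the right of 0. The intervals assume the same spread in WT and SHIVA livers.

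The WT livers differed among themselves in the same order in several of these genes. WT replicate 2 had the highest WT value in 7 of the 9 genes, against 30.7% of all genes tested, and WT replicate 3 had the lowest WT value in 5 (Cpt1b, Slc25a20, Cpt2, Crat and Slc22a5), against 36.6%. The SD among WT livers exceeded that among SHIVA livers in 7 of the 9 genes, and in 55.3% of all genes. For Crat, Slc25a20 and Slc22a5 the WT SD was 7.86, 5.09 and 3.47 times the SHIVA SD. The limma intervals and p-values assume the same spread in both groups. With the wider spread in the smaller group, as in these genes, such intervals can be too narrow and unadjusted p-values too small. Without WT replicate 3, Crat, Slc25a20 and Slc22a5 were called, with log2 fold changes of -1.71, -0.96 and -1.43 and limma adjusted p-values of 0.0137, 0.0263 and 0.0257, and the number of genes called in all rose from 75 to 423. No call was made among the 9 genes without any other single mouse. Whether WT replicate 3 differed from its group for a technical or a biological reason was not tested.

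**Figure D3:**
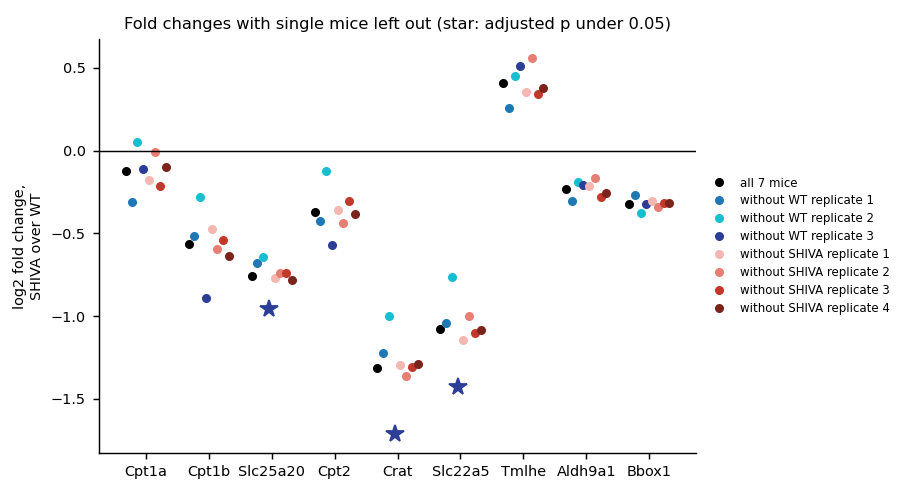
Log2 fold change, SHIVA over WT (y axis), of each of the 9 genes with all 7 mice (black) and without each mouse in turn (colours), where a star marks a limma adjusted p below 0.05. Stars appear at Crat, Slc25a20 and Slc22a5 for the fit without WT replicate 3, and Cpt1a changes sign without WT replicate 2, at 0.053.

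Genes that act next to the shuttle were grouped by role. Of 8 other carnitine carriers and acyltransferases, 6 were tested, and none was called. Slc22a21 and Slc22a4, carnitine or cation transporters related to Slc22a5, gave log2 fold changes of -1.20 (SE 0.31, limma adjusted p = 0.183) and -0.85 (SE 0.24, limma adjusted p = 0.206). In RefSeq gene order Slc22a5, Slc22a21 and Slc22a4 are consecutive protein-coding genes on chromosome 11. In all 3 every SHIVA liver lay below every WT liver, an arrangement that 6.02% of all genes tested showed. The third gene below the WT range was Slc25a29, a mitochondrial carrier related to Slc25a20, at -0.65 (SE 0.17, limma adjusted p = 0.179). Slc16a9, a carnitine efflux transporter, had a higher mean in SHIVA livers (log2 fold change 0.39, limma adjusted p = 0.365). Its ranges practically touched, with the highest WT value at 7.4196 and the lowest SHIVA value at 7.4199. The median of the 6 was -0.43. Whether the Slc22a5 and Slc22a21 probes also bind each other's transcripts was not tested.

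Slc22a21 gave 7.31, 7.52 and 6.59 in the WT livers and 6.23, 5.20, 6.25 and 6.11 in the SHIVA livers. WT replicate 3 was again the lowest WT liver, and SHIVA replicate 2 stood below the other 3 SHIVA livers. Slc22a4 gave 5.70, 5.88 and 5.46 in the WT livers and 4.31, 4.80, 4.87 and 5.34 in the SHIVA livers, with SHIVA replicate 4 close to the WT range. Slc25a29 gave 7.77, 7.76 and 7.59 in the WT livers and 6.89, 7.39, 7.08 and 6.89 in the SHIVA livers.

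Malonyl-CoA, made by acetyl-CoA carboxylases and removed by Mlycd, inhibits CPT1, and AMP-activated protein kinase restrains its synthesis. Of 10 genes of this control, 9 were tested and none was called, with a median log2 fold change of 0.066. Acacb, the carboxylase of the mitochondrial surface, gave -0.65 (SE 0.32, limma adjusted p = 0.429) with overlapping groups. Prkaa1, a catalytic kinase subunit, gave 0.43 (SE 0.15, limma adjusted p = 0.275) with every SHIVA liver above every WT liver, and Prkab2 gave 0.27 (SE 0.19, limma adjusted p = 0.604).

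The long-chain acyl-CoA synthetases make the substrate of CPT1. None of the 4 tested of 5 was called, and all 4 overlapped. Acsl1, the main form of liver, gave -0.48 (SE 0.25, limma adjusted p = 0.453), while Acsl3 and Acsl4 gave 0.31 (SE 0.30, limma adjusted p = 0.722) and 0.29 (SE 0.29, limma adjusted p = 0.724).

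Of 15 enzymes of matrix beta-oxidation, which use the acyl-CoA that Cpt2 releases, 13 had a lower mean in SHIVA livers and none was called, with a median of -0.24. The share of all genes with a log2 fold change below 0 was 51.2%. Eci1 and Eci2, which handle double bonds of unsaturated chains, gave -0.62 (SE 0.16, limma adjusted p = 0.186) and -0.59 (SE 0.21, limma adjusted p = 0.288), and Acadm, the medium-chain dehydrogenase, gave -0.42 (SE 0.15, limma adjusted p = 0.268). Eci1, Acadm and Hadh had no overlap, with the SHIVA livers on the lower side, an arrangement that 6.02% of all genes tested showed. For Hadh the ranges nearly met, with the lowest WT value at 12.769 and the highest SHIVA value at 12.758 (limma adjusted p = 0.596).

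**Figure D4:**
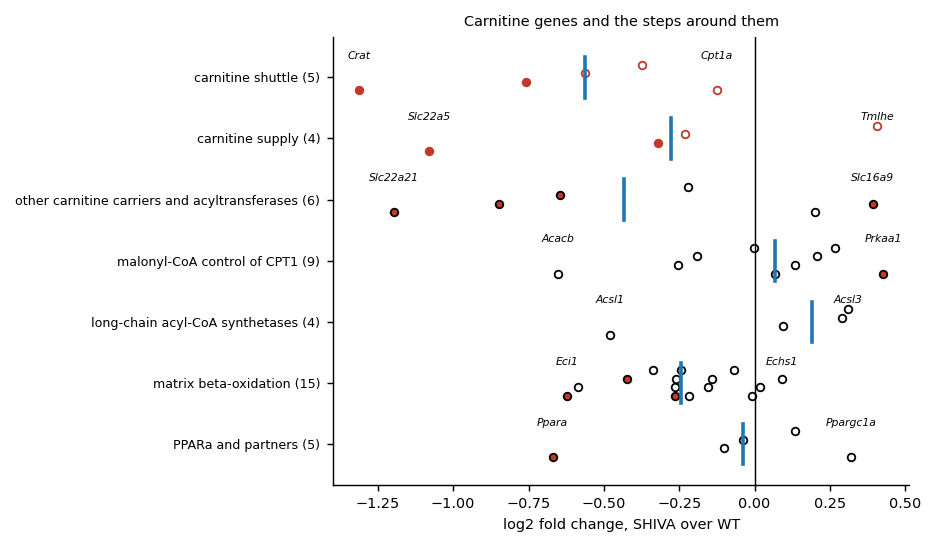
Log2 fold change, SHIVA over WT (x axis), of the carnitine genes (red outlines) and of 5 neighbouring gene groups (black outlines), with the number tested in brackets, filled points for genes whose WT and SHIVA livers do not overlap and a blue bar at each group's median. The medians are -0.56 for the shuttle, -0.28 for supply, -0.43 for other carriers and acyltransferases, 0.066 for malonyl-CoA control, 0.19 for acyl-CoA synthetases, -0.24 for matrix beta-oxidation and -0.038 for PPARa and its partners.

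Ppara, the receptor itself, gave 12.19, 12.61 and 12.33 in the WT livers and 11.66, 11.75, 11.64 and 11.78 in the SHIVA livers. The SHIVA livers were all below the WT livers, at a log2 fold change of -0.67 (SE 0.15, limma adjusted p = 0.132). Its coactivator Ppargc1a and the nuclear receptor Hnf4a overlapped, at 0.32 (SE 0.56, limma adjusted p = 0.855) and 0.14 (SE 0.16, limma adjusted p = 0.763). None of the 5 tested genes of this group of 6 was called.

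Aldh9a1 belongs to a family of aldehyde dehydrogenases whose other members act on other substrates. None of 10 others was called, and their median log2 fold change was 0.23, against -0.23 for Aldh9a1. Of the 10, 3 had a lower mean in SHIVA livers. In 2 of the 10 every SHIVA liver lay below every WT liver, as in 6.02% of all genes tested, whereas Aldh9a1 overlapped. The mitochondrial Aldh1b1 gave 1.40 (SE 0.35, limma adjusted p = 0.166), the fatty aldehyde dehydrogenase Aldh3a2 gave -0.75 (SE 0.19, limma adjusted p = 0.156), and Aldh4a1, of proline breakdown, gave 0.61 (SE 0.23, limma adjusted p = 0.302).

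PPARa binds with RXR to a direct repeat, AGGTCANAGGTCA, in which N is any base. Promoter windows of 300 bases, from 250 before to 50 after the start, were in the RefSeq table (GRCm38.p6) for 6 of the 9 genes and were searched on both strands. The nearest matches differed by 2 letters in Slc25a20 and Aldh9a1 and by 3 in Bbox1, and by 4, 4 and 5 in Cpt1a, Slc22a5 and Cpt2. Of 32851 promoters, 3.86% held a match with at most 2 differences and 24.6% one with at most 3. The 3 nearest are shown with the match in capitals, 5′ to 3′ on the strand of the gene, at chr9:108662134-108662163 (plus), chr1:167349839-167349868 (plus) and chr2:110305792-110305821 (minus).
Slc25a20: ctgaatgtAGGTGAAAGGTCGgcggagccg
Aldh9a1: aattatctAGGCCAAAGGTCTtccagttcc
Bbox1: ctctaatcAGAACAAAGGTCCcggcatggg

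The Slc25a20 match begins at base 7 of the transcript, the Aldh9a1 match 144 bases before the start and the Bbox1 match 88 bases before it. Of the 6 genes searched, 3 had no overlap between the genotypes, with 2 differences (Slc25a20), 3 (Bbox1) and 4 (Slc22a5) from the repeat, and 3 overlapped, with 2 (Aldh9a1), 4 (Cpt1a) and 5 (Cpt2). The letters ACAAT, the core that Sox proteins bind, occurred on either strand in the windows of Slc25a20 and Bbox1 and in 31.0% of all promoters, and the longer AACAAT occurred in none of the 6 windows and in 10.7% of all. Such matches describe letters only, and binding was not measured.

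For 3 of the genes, those with the most similar pattern over the 7 livers were listed by the root mean square difference of log2 values, each centred on its own mean, among 19958 genes. For Cpt1a these were Ncdn (0.0576), a lincRNA probe without a gene symbol (0.0619) and Foxp4 (0.0684), while Cpt1a itself varied by 0.271 about its mean. For Cpt2, which varied by 0.325, they included Klhl25 (0.0473) and Efl1 (0.0859). For Slc22a5, which varied by 0.653, they were Dnmbp (0.126), Mgll (0.156), the monoacylglycerol lipase, and a transcript named ENSMUST00000100512 (0.192). These are descriptions over 7 livers on 1 slide.

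Markers of other cell types were read beside these values. Of 7 adipose markers, 5 were not above background on any array, and log2 of the list's summed signal was 4.92 to 5.49 in WT and 4.91 to 5.84 in SHIVA livers. Kidney, where Slc22a5 reabsorbs carnitine, was checked with 5 markers, of which 4 (Umod, Slc12a1, Kap and Nphs1) were not above background on any array. The other, Slc34a1, was above it on all 7, at 5.18 ± 0.16 in WT and 4.84 ± 0.58 in SHIVA livers (SD, n = 3 and n = 4), and log2 of the list's summed signal was 5.58 to 5.91 in WT and 5.24 to 5.96 in SHIVA livers. Log2 of the summed signal of 5 blood and leukocyte markers was 15.47 to 15.95 in WT and 15.76 to 16.64 in SHIVA livers, nearly all of it from the globin gene Hba-a1 (15.39 to 15.89 and 15.69 to 16.59). Alas2, of heme synthesis in red cells, was above the WT range in all SHIVA livers (log2 fold change 0.63, SE 0.20, limma adjusted p = 0.238). An arrangement of this kind was shown by 6.14% of all genes tested. The leukocyte genes Ptprc, Lyz2 and Cd3e gave 0.58, 0.16 and -0.13, all with overlap, and add little to the sum. For 4 biliary markers log2 of the summed signal was 6.90 to 8.09 in WT and 6.39 to 7.26 in SHIVA livers. For 4 endothelial markers it was 13.17 to 13.26 and 12.76 to 13.20. Of the biliary markers, 1 was above background on all arrays. Krt7 and Krt19 gave log2 fold changes of -0.81 and -0.73, Sox9 gave 0.60, and Epcam was not tested. Kdr (12.76 and 12.47) adds the most to the endothelial sum. It gave -0.29, while Cdh5 gave 0.31, Pecam1 0.083 and Stab2 -0.066, and none of these markers was called. The part of these cells in the carnitine gene values was not tested.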

How the data were processed

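Liver RNA of 3 WT and 4 SHIVA mice was hybridised to one-colour Agilent arrays, whose deposited scanner files hold intensity values per spot (processed signal, background-subtracted by Agilent Feature Extraction 10.5.1.1, per the file headers). The authors' deposited table holds log2 values that they quantile normalised in R, and it served as an alternative. Groups and replicate numbers came from the sample labels.

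Here the processed signals of 59305 non-control spots per array were taken to log2 and then quantile normalised after outlier spots were left out, and spots of 1 probe were averaged. Probes were given current names through RefSeq (GRCm38.p6), which matched 26413 of 55681. A gene was its brightest probe and was tested where Feature Extraction marked this probe well above background on 3 or more of the 7 arrays. The test was limma 3.58.1 (R 4.3.3), SHIVA minus WT, Benjamini-Hochberg over 20000 genes, threshold 0.05. On simulated data with 200 genes changed, it called 89.5% of them at a log2 change of 2 and 44% at 1. Of all calls in these runs, 6.77% and 2.22% were of unchanged genes. The simulation gave both groups the same spread, so it does not cover genes with a wider spread in WT livers. The number of arrays, 3 and 4 a group, limits the precision. Probe positions are those of the file headers' build (mm9), and exons or UTRs were not assigned, since no mm9 annotation was used here.

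All 9 carnitine genes are named. Of other groups, cell type markers aside, the 3 largest log2 fold changes are named. Genes named beyond these (Slc16a9, Hadh and single markers) were chosen after their values were seen. The 3 most similar patterns were listed for Cpt1a, Cpt2 and Slc22a5, of which 1 for Cpt2 is not reported here. Members and lists were chosen with earlier results of these data known. Alternatives were scaling to the 75th percentile, mean signal or normexp background (offset 50), the authors' table, other filters on dim probes, averaging a gene's probes, single probes, array weights, a replicate block, leaving out each mouse and the methods' t-test.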

Additional observations from a re-analysis of the deposited data

Results flagged for a closer look

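In Crat, SHIVA replicate 2 stood apart from the other 3 SHIVA livers, at a log2 signal of 7.05 against 6.85 to 6.88. The gap took a share of 0.849 of the range, above the 95% critical value of Dixon's test for 4 samples. Such gaps were looked for in the SHIVA livers for 9 genes, of which 1 was marked, where chance alone gives 0.45. All 4 SHIVA livers, this one included, were below the lowest WT liver, and without it the log2 fold change of Crat was -1.36 (limma adjusted p = 0.201).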

How the results depend on the processing

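The 9 carnitine genes gave 0 calls by limma (4 at an unadjusted p below 0.05) and by every alternative except 2. These were array weights, with 2 calls (Slc25a20, adjusted p = 0.0495, and Crat, adjusted p = 0.0337), and leaving out WT replicate 3, with 3 calls (range over single mice left out 0 to 3). Their median log2 fold change was -0.57 to -0.28 over single mice left out and -0.57 with array weights. Over single mice left out Cpt1a ranged from -0.31 to 0.053, the latter without WT replicate 2, which was the only sign change among the 9 genes. Tmlhe was above 0 in all 17 of its alternatives, and Crat, Slc25a20, Slc22a5, Aldh9a1 and Bbox1 were below 0 in all 17 of theirs. The number of all genes called, 75, became 141 with mean signal, 141 with the authors' table, 13 without a filter on dim probes, 269 with array weights and 0 with the methods' t-test (2299 at an unadjusted p below 0.05), and ranged from 3 (without WT replicate 1) to 423 (without WT replicate 3) over single mice left out, with 8 without WT replicate 2, 7 without SHIVA replicate 1 and 13 without SHIVA replicate 3. The cause was not tested. The sample labels give no pairing of the mice. Deviations from the group mean correlated at -0.049, 0.013 and 0.24 between same-numbered mice and at -0.195 to 0.203 between the others. Such few values cannot decide whether the numbers pair mice. With the number as a replicate block 32 genes were called in all and 0 of the carnitine genes, with a median of -0.38. The second Cpt1b probe was above background on only 5 of 7 arrays.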
